A study of Mus musculus with 20 samples.

Results

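The effect of a knock-in in Ager, the gene of RAGE (a receptor of advanced glycation end products), was compared between neutrophils and lung, gene by gene, as the difference between the AHA-over-WT change in one tissue and that in the other. The comparison rested on 13 of the 20 libraries of the series, namely every library of the knock-in and the wild type, and on the 17692 of 54532 genes with enough counts to be tested. The groups were Ager AHA/AHA neutrophils (AHA PMN, 3 libraries), wild-type neutrophils (WT PMN, 3 libraries), Ager AHA/AHA lungs (AHA lung, 4 libraries) and wild-type lungs (WT lung, 3 libraries). All were C57BL/6 mice by the labels, and the knock-in had been made in C57BL/6J eggs by CRISPR-Cas9 and homologous recombination. Neutrophils came from a dorsal air pouch 4 hours after 1 μg of lipopolysaccharide (LPS), as leucocytes of which more than 95% were PMN by the labels, while the lungs were perfused and frozen and carry no LPS treatment in the labels. Tissue and LPS treatment therefore cannot be told apart in any difference between the tissues. The sources used here give neither age nor sex nor what a replicate number stands for, so p-values measure the spread between these samples.

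RAGE is a multiligand receptor of the immunoglobulin superfamily that binds HMGB1 and S100 proteins and signals mainly through NF-κB. It needs to oligomerize to signal, and heparan sulfate (HS), a sulfated polysaccharide of cell surfaces, holds the oligomer together. Lung is the organ with the highest RAGE level, on alveolar type 1 cells, and neutrophils are short-lived phagocytes recruited by LPS. The knock-in replaces a run of arginines that contacts HS with alanine, histidine and alanine, which leaves the receptor in place but impairs its HS binding. The codons are shown because they are the designed difference between all AHA and all WT libraries. In the GENCODE M21 annotation of GRCm38 (mm10), Ager lies at chr17:34597862-34600936 on the plus strand, and its protein of 402 residues holds 1 run of 3 arginines, at residues 214 to 216 in exon 6 (R214A, R215H and R216A in the numbering of this transcript, which runs lower than the residue numbers the study uses for the same mutation). The wild-type coding bases 622 to 666 are given 5′ to 3′, with the arginine codons in capitals.
Ager, wild-type coding sequence: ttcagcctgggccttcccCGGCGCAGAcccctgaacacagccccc

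Libraries held 19934817 to 23522678 counts in AHA PMN and 18226486 to 19584101 in WT PMN, and 18315663 to 24818703 in AHA lung and 19586313 to 24683586 in WT lung. Levels are given as CPM, the counts of a gene scaled to a common library total within each tissue, so a gene's level in neutrophils and its level in lung can be set side by side only roughly. The labelled cell types carried their defining markers. Summed over the neutrophil marker list, the level was 51152 to 74472 CPM in AHA PMN and 55094 to 77636 CPM in WT PMN, against 242 to 647 CPM in AHA lung and 309 to 374 CPM in WT lung. The alveolar type 2 markers summed to 40368 to 49379 CPM in AHA lung and 43952 to 49237 CPM in WT lung, and to no more than 87.8 CPM in any neutrophil library. AHA lung replicate 4 stood apart from the other lungs. S100a9, a neutrophil marker, was at 148 CPM in it, against 17.4 to 30.8 CPM in the other AHA lungs. WT lungs had 24.9 to 35 CPM of S100a9. Summed immunity-related GTPases were at 1001 CPM in AHA lung replicate 4, against 199 to 221 CPM in the other AHA lungs.

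Ager itself did not differ detectably by genotype in either tissue. Its level was 0.844, 1.73 and 1.11 CPM in AHA PMN against 2.18, 0.855 and 1.34 CPM in WT PMN, and 1610, 1916, 1856 and 2885 CPM in AHA lung against 2749, 2536 and 1946 CPM in WT lung. The groups overlapped in both tissues. The log2 fold change was -0.21 (SE 0.352) in neutrophils and -0.22 (SE 0.229) in lung, and their difference was 0.01 with a 95% interval of -0.96 to 0.98. Since the knock-in exchanges codons and removes none of the transcript, this level does not check the genotype labels.

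Many more genes were called in neutrophils than in lung, though how many more depended on the model. Genes were called where the adjusted p was under 0.05 and the change exceeded 1 on the log2 scale (edgeR's quasi-likelihood test with Benjamini-Hochberg adjustment). By this rule 378 genes were higher (2.14% of genes tested) and 86 lower (0.486%) in AHA PMN than in WT PMN. In AHA lung, 8 genes were higher (0.0452%) and 13 lower (0.0735%) than in WT lung. The difference between the tissues was called for 105 genes, with 70 higher (0.396%) and 35 lower (0.198%) in neutrophils relative to lung, or 66.67% higher. With scaling factors set over all 13 libraries in place of within each tissue, 86 were higher and 23 lower (78.9% higher). Over the 8854 genes at 1 CPM or more in both tissues, the median SE in log2 units was 0.197 in neutrophils. It was 0.163 in lung and 0.259 for the difference. The model fitted 1 dispersion per gene over both tissues, so these SEs do not measure the spread within each tissue apart. With each tissue fitted alone, 187 genes were called higher and 63 lower in neutrophils, and 11 higher and 12 lower in lung. At an unadjusted p under 0.05 there were 3781 genes in neutrophils, 454 in lung and 2839 for the difference. With the replicate number as a block in the model, 8 genes were called higher and 10 lower in neutrophils. The same model called 5 higher and 9 lower in lung. Only replicate number 2 occurs in both neutrophil genotypes, while numbers 1 to 3 occur in both lung genotypes. Number and genotype can therefore hardly be told apart in neutrophils, and these counts are not a fair comparison of the tissues.

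These genes fell into classes by the test of the difference itself. In both tissues and in the same direction, 13 genes were called, 4 higher and 9 lower, and no gene was called in opposite directions. A further 80 genes were neutrophil-limited, meaning called in neutrophils, not past the adjusted p in lung and called for the difference, with 65 higher and 15 lower. No gene was lung-limited by the same rule in edgeR or DESeq2, and 4 genes were by limma voom. Another 24 genes were called for the difference only, and 379 genes were called in 1 tissue without a called difference, 371 in neutrophils and 8 in lung. For those 371 the data do not tell a neutrophil-limited change from one present in both tissues, although the lung interval lay within 1 log2 unit of 0 for 308 of them.

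The class counts were sensitive to single libraries. The number of called differences was 9 without WT lung replicate 1, 10 without AHA PMN replicate 6, 15 without AHA lung replicate 3, 19 without WT PMN replicate 1, 22 without WT lung replicate 3, 30 without AHA lung replicate 1, 36 without WT PMN replicate 3, 37 without WT lung replicate 2 and 67 without AHA PMN replicate 4. It was 327 without WT PMN replicate 2 and 464 without AHA PMN replicate 2, and stayed within 1.5 times of 105 without either remaining library. The 13 shared genes varied less, between 8 without WT lung replicate 3 and 14 without WT PMN replicate 2.

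**Figure D1:**
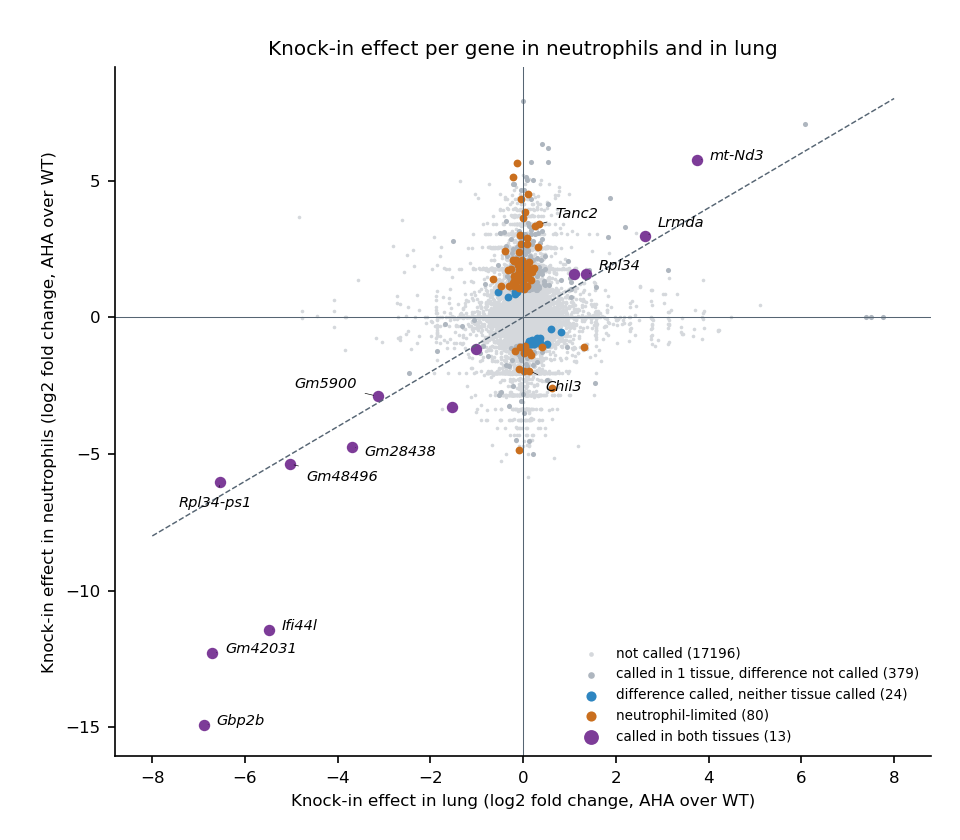
Log2 fold change of AHA over WT in lung (x axis) and in neutrophils (y axis) for each of the 17692 genes tested, coloured by class, with the dashed line marking equal effects. The 13 genes called in both tissues lie in the upper right and lower left, and the 80 neutrophil-limited genes stand in a column near a lung change of 0.

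Over the 8854 genes at 1 CPM or more in both tissues, the log2 fold changes correlated across genes with a Pearson r of 0.229 and a Spearman rho of -0.03, a description only, since genes of one library are not independent. Of the 288 genes called in neutrophils, not shared and at 1 CPM or more in both tissues, 162 had the same sign in lung (56.25%), against 48.7% of all 8854 genes. The median lung log2 fold change of the genes called higher in neutrophils, with shared genes left out, was 0.02.

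Among the 13 shared genes, the largest fitted fold change in each tissue was that of Gbp2b, an interferon-inducible guanylate-binding protein that acts in cell-autonomous defence against intracellular pathogens. Its level was 0, 0.157 and 0.0384 CPM in AHA PMN against 2563, 2708 and 1885 CPM in WT PMN. In lung it was 0.278, 0.142, 0.372 and 0.695 CPM in AHA mice against 50.4, 47.2 and 39.5 CPM in WT mice. AHA libraries of both tissues thus sat at the bottom of the scale, while the WT level differed widely between the tissues. The log2 fold change was -14.90 (SE 0.451) in neutrophils and -6.88 (SE 0.306) in lung, and Gbp2b was the shared gene with a called difference, of -8.02 (95% interval -9.39 to -6.65, adjusted p = 1.81e-06, edgeR's quasi-likelihood test with Benjamini-Hochberg adjustment). That call held without each library in turn, with log2 differences of -9.45 to -7.48. Its size is less sure than the interval shows, since the AHA levels rested on 5 counts over AHA PMN and 33 over AHA lung. With AHA libraries so near 0 in both tissues, the size also depends on how far the WT levels lie apart.

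Ifi44l, a further interferon-induced gene on chromosome 3, followed the same form. It had 0 counts in all 3 AHA PMN libraries against 12.6, 21.2 and 15.4 CPM in WT PMN, at least 378-fold lower when the AHA libraries are set at the floor of 3 counts over the group. In lung its level was 0.139, 0.0474, 0 and 0 CPM in AHA mice against 1.76, 2.15 and 3.17 CPM in WT mice, a log2 fold change of -5.49 (SE 0.551). Groups did not overlap in either tissue. The difference between tissues had an adjusted p of 0.0968 and was not called, and with counts of 0 in AHA PMN its fitted size is not a measurement.

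Its neighbour Ifi44 behaved differently. The level was 7.26, 7.15 and 10.1 CPM in AHA PMN against 43.1, 74.6 and 46.4 CPM in WT PMN, a log2 change of -2.74 with an SE of 0.379 (adjusted p = 0.00232 by edgeR's quasi-likelihood test with Benjamini-Hochberg adjustment). In lung it was 6.58, 6.54, 5.95 and 16.8 CPM in AHA mice against 14.4, 13.8 and 9.85 CPM in WT mice, with the groups overlapping through AHA lung replicate 4. The lung log2 fold change was -0.49 (95% interval -1.23 to 0.25) and the difference of -2.25 had an adjusted p of 0.0618. Without AHA lung replicate 4 the difference was -1.74 and was called, with an adjusted p of 0.0186 by the same edgeR test.

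Among predicted genes, Gm42031 on chromosome 8, a long intergenic noncoding RNA, had 0 counts in AHA PMN against 38, 36.6 and 13.7 CPM in WT PMN, at least 665-fold lower by the floor of 3 counts. In lung it had 3 counts over all AHA libraries against 274 over the WT libraries, a WT-over-AHA ratio of 124 with a counting interval of 41.9 to 603. A930005H10Rik on chromosome 3, a processed transcript, was at 0.169, 0.157 and 0.0768 CPM in AHA PMN against 1.83, 1.25 and 0.874 CPM in WT PMN. In lung it was at 3.38, 2.61, 3.72 and 2.41 CPM in AHA mice against 9.33, 6.54 and 10.5 CPM in WT mice, and neither tissue's groups overlapped. Its log2 fold change was -3.27 (SE 0.478) in neutrophils and -1.54 (SE 0.277) in lung. Both lung calls were lost without some lungs. The highest adjusted p was 0.25 for Gm42031 without AHA lung replicate 2 and 0.221 for A930005H10Rik without WT lung replicate 3. Gm42031 also lost its lung call without WT lung replicates 1 or 3 and without AHA lung replicates 1, 3 or 4, and A930005H10Rik without WT lung replicate 1 and without AHA lung replicates 1, 2 or 4, in each case by the adjusted p.

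The protein-coding genes Lrmda, Ide and Mindy3 changed in the same direction in both tissues, with no called difference. Lrmda, linked in humans to melanocyte differentiation, was at 0.957, 1.26 and 0.96 CPM in AHA PMN against 0.118, 0 and 0.257 CPM in WT PMN, and at 8.38, 8.48, 8.44 and 8.54 CPM in AHA lung against 1.13, 1.52 and 1.46 CPM in WT lung. Its log2 fold change was 2.98 (SE 0.512) in neutrophils and 2.63 (SE 0.317) in lung, a difference of 0.36 (95% interval -0.85 to 1.57). Ide, the insulin-degrading enzyme, was at 2.08, 2.87 and 5.3 CPM in AHA PMN against 0.825, 1.77 and 0.874 CPM in WT PMN, and at 107, 131, 103 and 120 CPM in AHA lung against 52.6, 57.5 and 51.1 CPM in WT lung. Its log2 fold change was 1.59 (SE 0.317) in neutrophils and 1.10 (SE 0.209) in lung, a difference of 0.49 (95% interval -0.31 to 1.28). Mindy3, a deubiquitinase, was lower, at 13.5, 8.56 and 12.1 CPM in AHA PMN against 28.3, 22.9 and 24.1 CPM in WT PMN, and at 22, 22.5, 22.1 and 24.2 CPM in AHA lung against 44.5, 45.3 and 47.6 CPM in WT lung. The log2 fold change of Mindy3 was -1.15 (SE 0.164) in neutrophils and -1.01 (SE 0.147) in lung, with a difference of -0.13 (95% interval -0.59 to 0.32). No group overlapped for these genes in either tissue. Ide lay close to the threshold in lung, with an adjusted p of 0.036 by edgeR's quasi-likelihood test, and kept the call in 5 of the 13 fits that left out a library, with an adjusted p of 0.349 without WT lung replicate 1. In neutrophils it lost the call without WT PMN replicate 1 (adjusted p = 0.0574 by edgeR). Mindy3 lost a call through a log2 fold change short of 1, of -0.98 in neutrophils without AHA PMN replicate 4 of -0.987 in lung without WT lung replicate 3, and by a margin under 0.01 without AHA lung replicate 1.

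**Figure D2:**
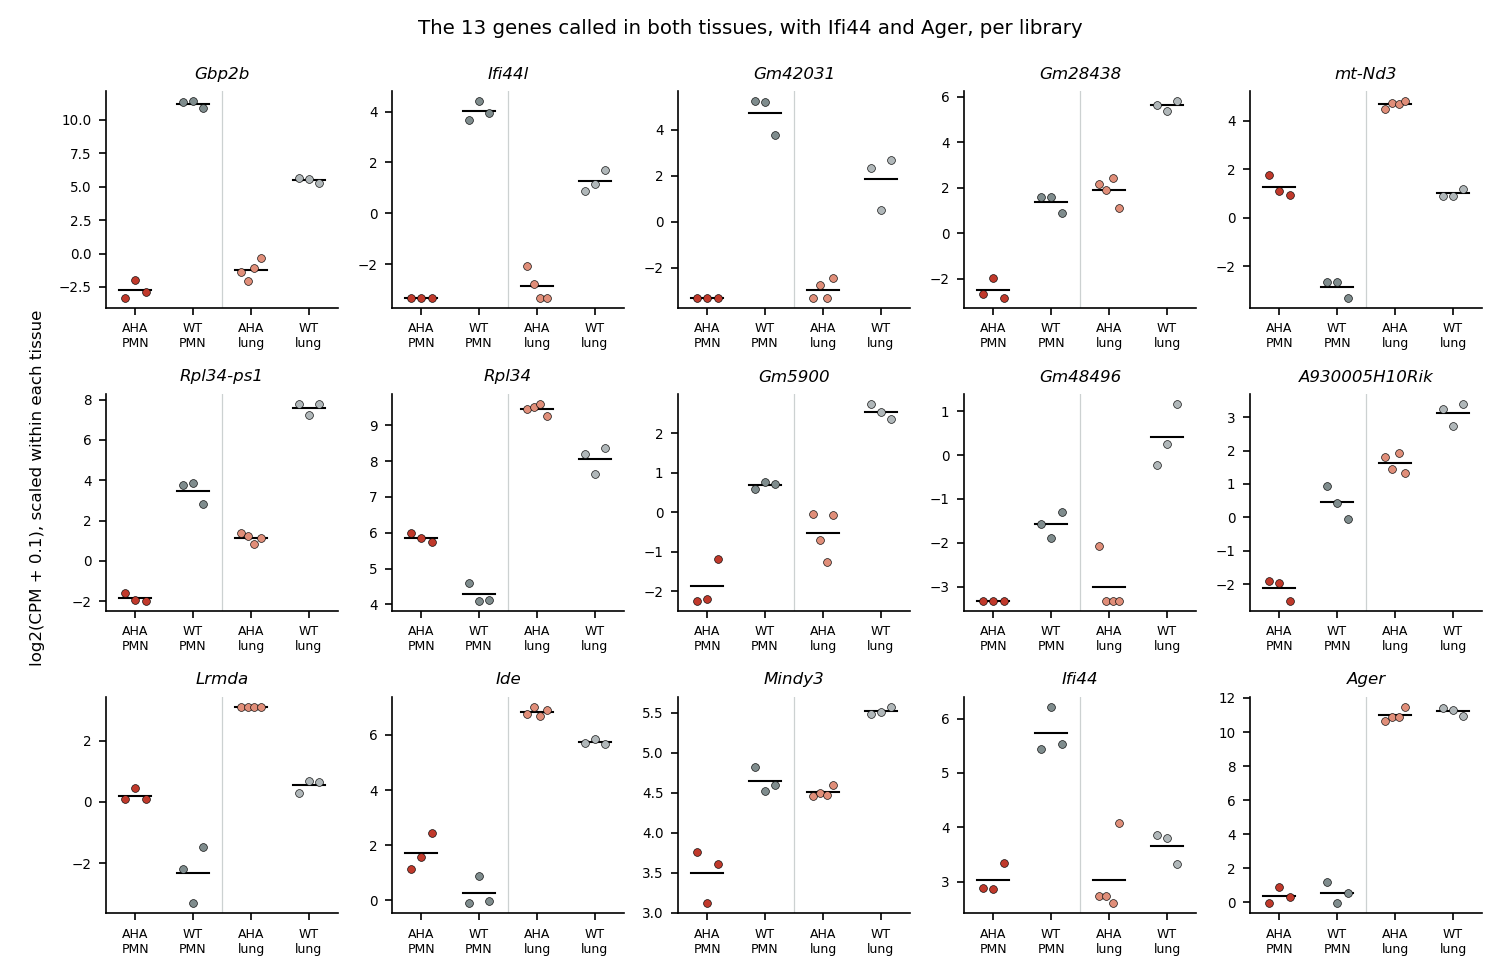
Level per library, as log2(CPM + 0.1) scaled within each tissue, of the 13 genes called in both tissues and of Ifi44 and Ager. Points are libraries and bars are group means; AHA and WT libraries separate in both tissues for the 13 shared genes, while Ager and, in lung, Ifi44 overlap.

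The remaining shared genes were members of near-identical pairs, each made of a copy that was called lower in AHA mice and of its parent gene. Gm28438 on chromosome 1 is an unprocessed pseudogene copy of mitochondrial mt-Nd3, a subunit of respiratory complex I. Rpl34-ps1 on chromosome 6 is a processed pseudogene of Rpl34, a protein of the large ribosomal subunit. Gm5900 on chromosome 7 is one of Lamtor3, a scaffold of the lysosomal Ragulator complex, and Gm48496 on chromosome 13 one of Slc35a3, a Golgi transporter of UDP-N-acetylglucosamine. Their sequences are shown because a copy and its parent differ at only a few bases of the aligned stretch. How single reads were assigned within a pair was not tested. By blastn, the identity was 99.71% over 345 bases for Gm28438, 99.44% over 354 bases for Rpl34-ps1, 99.47% over 375 bases for Gm5900 and 99.55% over the 221 aligned bases of Gm48496. The mismatches were T3C for Gm28438, T132C and C318G for Rpl34-ps1, C111T and G336A for Gm5900 and C939T for Gm48496, with the parent's base first and positions counted from the first coding base of the parent, and each lay at the third base of a codon. For each pair 1 window of the GENCODE M21 transcripts is given in the coding direction of the parent, with the differing base in capitals.
mt-Nd3: atTaacctgtacactgt
Gm28438: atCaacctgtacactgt
Rpl34: aaagcacctaaatcTgcatgtggcgtgtg
Rpl34-ps1: aaagcacctaaatcCgcatgtggcgtgtg
Lamtor3: attaaagtggctaaCgacagtgccccaga
Gm5900: attaaagtggctaaTgacagtgccccaga
Slc35a3: gctactttcttgtaCggttacgatcccaa
Gm48496: gctactttcttgtaTggttacgatcccaa

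For mt-Nd3 and Gm28438 the reads stood almost wholly with the parent in AHA mice and with the copy in WT mice. mt-Nd3 was at 3.26, 2.04 and 1.8 CPM in AHA PMN against 0.0589, 0.057 and 0 CPM in WT PMN, or 157 counts against 2, a ratio of 61.2 with a counting interval of 16.7 to 509. Gm28438 was at 0.0563, 0.157 and 0.0384 CPM in AHA PMN against 2.89, 2.91 and 1.75 CPM in WT PMN. In lung, mt-Nd3 was at 22.3, 26.6, 26.1 and 28.1 CPM in AHA mice against 1.76, 1.78 and 2.19 CPM in WT mice, and Gm28438 at 4.35, 3.6, 5.26 and 2.04 CPM in AHA mice against 50, 41.9 and 56 CPM in WT mice. The copy held 3.42% of the pair's mean CPM in AHA PMN and 98.5% in WT PMN, and 12.9% in AHA lung and 96.3% in WT lung. The sum of the pair had a log2 fold change of -0.08 (SE 0.244) in neutrophils and -0.79 (SE 0.173) in lung, and was called in neither tissue.

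For Rpl34-ps1 and Rpl34 the copy was likewise lower and the parent higher in AHA mice, and the parent differed by more CPM than the copy. Rpl34-ps1 was at 0.225, 0.157 and 0.154 CPM in AHA PMN against 13.4, 14.5 and 6.89 CPM in WT PMN, and at 2.5, 2.23, 1.7 and 2.08 CPM in AHA lung against 221, 150 and 222 CPM in WT lung. Rpl34 was at 63.5, 57.4 and 53.9 CPM in AHA PMN against 24.1, 17.1 and 17.5 CPM in WT PMN, and at 693, 721, 772 and 608 CPM in AHA lung against 293, 200 and 331 CPM in WT lung. The copy held 0.306% of the pair in AHA PMN and 37.2% in WT PMN, and 0.304% in AHA lung and 41.9% in WT lung, so the shares in the tissues were close. On the log2 scale the sum was 0.91 higher in AHA PMN (SE 0.188), which passed the adjusted p (0.00984 by edgeR) but fell short of 1, and in lung it had 0.57 (SE 0.173) with an adjusted p of 1 by edgeR.

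For the other copies the parent held most of the reads in every group. Gm5900 was at 0.113, 0.118 and 0.345 CPM in AHA PMN against 1.41, 1.6 and 1.54 CPM in WT PMN, and at 0.88, 0.521, 0.319 and 0.858 CPM in AHA lung against 6.61, 5.76 and 5.02 CPM in WT lung, with log2 fold changes of -2.89 (SE 0.48) and -3.14 (SE 0.359). Its share of the pair was 1.53% in AHA PMN and 8.87% in WT PMN, and 0.96% in AHA lung and 8.25% in WT lung. Gm48496 was the sparsest, with 0 counts in AHA PMN against 13 in WT PMN, at least 5.56-fold lower by the floor, and 3 counts in AHA lung against 83 in WT lung, a WT-over-AHA ratio of 37.5 with a counting interval of 12.4 to 185. Its neutrophil call was lost in 6 of the 13 fits that left out a library (adjusted p up to 0.127 by edgeR, without AHA PMN replicate 6) and its lung call without WT lung replicate 3 (adjusted p = 0.0713). The parents Lamtor3 and Slc35a3 were called in neither tissue. Slc35a3 was 0.74 higher on the log2 scale in AHA PMN (SE 0.164), which passed the adjusted p (0.0125 by edgeR) but fell short of 1. The sum of its pair did likewise, at 0.67 (SE 0.162, adjusted p = 0.0197 by edgeR). Lamtor3 had -0.34 in neutrophils (SE 0.14) and did not pass the adjusted p. Since handling of reads that map to several places and strand were not given in the sources used here, levels within a pair are uncertain, and the sum is the firmer value.

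With each of the 4 pairs summed, 6 shared genes remained: Gbp2b, Ifi44l, Gm42031, A930005H10Rik, Lrmda and Mindy3. Ide, a member of no pair, was no longer among them. Its lung call had been close to the threshold with the pairs counted apart (adjusted p = 0.036 by edgeR's quasi-likelihood test). The number of lung calls was then 13, against 21 with the pairs counted apart. This grouping was chosen after the data had been seen.

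**Figure D3:**
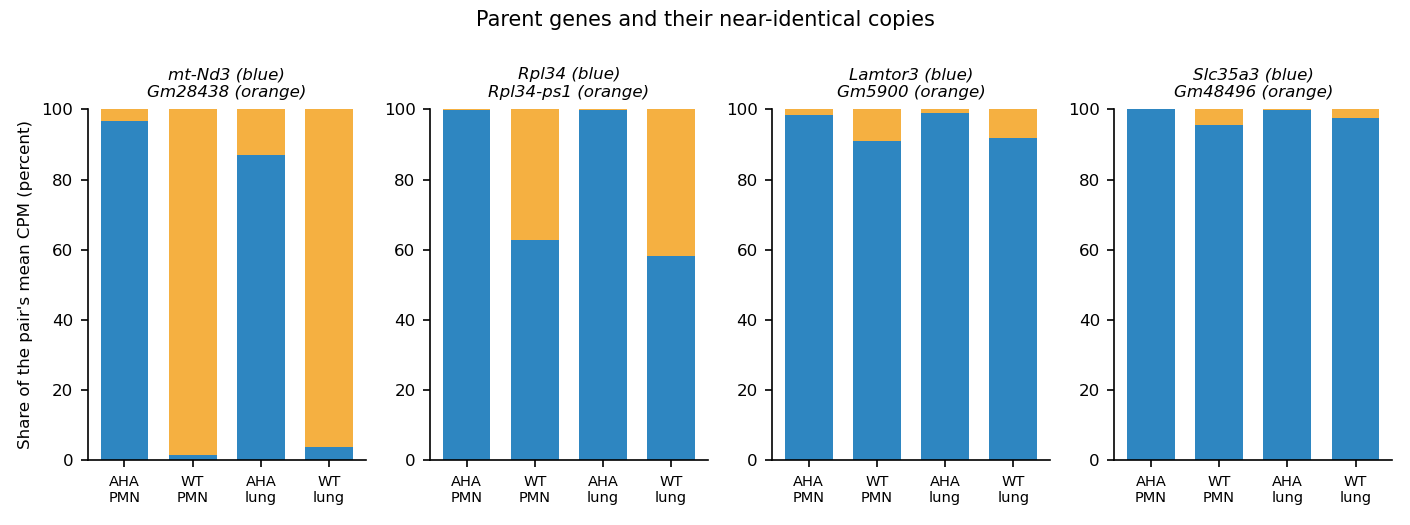
Share of the mean CPM of each pair that was counted on the parent (blue, below) and on its near-identical copy (orange, above), in percent, for the 4 groups. The copy's share was higher in WT than in AHA libraries of both tissues for all 4 pairs, most for Gm28438 (98.5% in WT PMN and 3.42% in AHA PMN).

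The shared genes were unevenly spread over the genome. Between A930005H10Rik and Ifi44l, at positions 115881581 to 151762892 of chromosome 3, lay 188 of the tested genes (1.06%). In that interval were 4 of the 13 shared genes (A930005H10Rik, Rpl34, Gbp2b and Ifi44l), 8 of the 21 genes called in lung (38.1%) and 13 of the 464 called in neutrophils (2.80%). The share of genes called in lung was 4.26% inside and 0.0743% elsewhere, and in neutrophils it was 6.91% inside and 2.58% elsewhere. The parents Lamtor3 and Slc35a3 also lie there. The ends of the interval were set by shared genes, so these counts are a description.

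Of the genes called in lung, 8 had no call in neutrophils, and for none of them was the difference between the tissues called. Alpk1, a kinase that senses bacterial ADP-heptose, was expressed in both tissues, at 12.7, 9.66, 14.4 and 10.4 CPM in AHA lung against 25.7, 28.7 and 33.8 CPM in WT lung, and at a mean of 112 CPM in AHA PMN and 140 CPM in WT PMN. Its log2 fold change was -0.33 (SE 0.217) in neutrophils and -1.32 (SE 0.211) in lung, with a difference of 0.99 (95% interval 0.35 to 1.63, adjusted p = 0.11 by edgeR). Wdfy1, an endosomal adaptor of Toll-like receptor signalling, was at 29.2, 31.5, 41.6 and 34.2 CPM in AHA lung against 70.2, 74.5 and 69.9 CPM in WT lung, a log2 fold change of -1.07 (SE 0.156), against -0.12 in neutrophils. Its difference of 0.95 was short of 1 and had an adjusted p of 0.0661 by edgeR.

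The other 6 of these genes were similar in both tissues or could not be read in neutrophils. Frrs1, a ferric-chelate reductase, rose by 1.04 on the log2 scale in lung (SE 0.206) and had 0.74 (adjusted p = 0.0712 by edgeR's quasi-likelihood test) in neutrophils. Cd59a, an inhibitor of the complement membrane attack complex, was at 27.6, 25.6, 27.8 and 16.8 CPM in AHA lung against 87.9, 69.7 and 77.8 CPM in WT lung, with 1 count over the AHA and 1 over the WT neutrophil libraries. Arsj, an arylsulfatase, fell by 2.46 on the log2 scale in lung (SE 0.354) and had 0 counts in AHA PMN and 1 in WT PMN. Gm15551, the pseudogene Gm13301 and mt-Tg, a mitochondrial tRNA gene next to mt-Nd3, had 91, 85 and 112 counts over the AHA lungs against 0 over the WT lungs, at least 22.4-fold, 20.9-fold and 27.6-fold higher by the floor, and 0 counts in every neutrophil library. Gm15551 is annotated as an antisense gene, and without the strand setting its reads cannot be told from those of the opposite strand.

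The lung libraries had the counts to show a change in the neutrophil-limited genes. In 74 of the 80 the mean CPM was higher in WT lung than in WT PMN, a share near that of 83.8% over all genes tested, with 63 of the 65 that were higher in AHA PMN and 11 of the 15 that were lower. All but 1 reached 1 CPM in a genotype of lung, and 65 of the 80 did so in neutrophils. In 76 of the 80 the 95% interval of the lung effect lay within 1 log2 unit of 0. Because these are bulk samples, fewer cells of a type and less RNA per cell cannot be told apart.

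Among genes lower in AHA PMN, Chil3, a chitinase-like protein made by macrophages and neutrophils, had the smallest p for the difference after Gbp2b. It was at 8.22, 6.09 and 6.6 CPM in AHA PMN against 22.9, 22 and 35.5 CPM in WT PMN, while AHA lung had 440, 358, 344 and 433 CPM against 420, 295 and 366 CPM in WT lung. Neutrophil groups were well apart and lung groups overlapped. The log2 fold change was -1.95 (SE 0.205) in neutrophils and 0.13 (SE 0.175) in lung, a difference of -2.08 (SE 0.27, adjusted p = 0.00108 by edgeR's quasi-likelihood test with Benjamini-Hochberg adjustment). The call held without each of the 13 libraries.

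Other neutrophil-limited genes were also lower in AHA PMN. Tns2, a focal adhesion protein, was at 0.225, 0.236 and 0.345 CPM in AHA PMN against 0.883, 1.43 and 0.977 CPM in WT PMN, and its lung log2 fold change was 0.01 (difference -1.99, adjusted p = 0.0222 by edgeR). Acvrl1, an endothelial receptor of bone morphogenetic proteins, was at 12, 6.36 and 11 CPM in AHA PMN against 30.2, 16.1 and 30.2 CPM in WT PMN, with a lung log2 fold change of 0.16 (difference -1.55). Mthfd2l, a mitochondrial enzyme of folate metabolism, was at 0.507, 0.943 and 0.422 CPM in AHA PMN against 2.41, 2.45 and 2.31 CPM in WT PMN (difference -1.81). Groups of these genes did not overlap in neutrophils. Tubb6, a β-tubulin, was at 32.4, 25.7 and 35.7 CPM in AHA PMN against 92.8, 60.6 and 46.7 CPM in WT PMN (difference -1.50). Ank2, an ankyrin (difference -3.20), had 8 counts over the AHA and 39 over the WT neutrophil libraries. Grb10, an adaptor of insulin signalling, had 0 counts in AHA PMN and 9 in WT PMN, at least 3.85-fold lower by the floor, against 31.4 to 40 CPM in AHA lung and 36.6 to 38 CPM in WT lung.

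The genes higher in AHA PMN were led by Tanc2, a scaffold protein. It was at 1.75, 1.45 and 1.69 CPM in AHA PMN against 0.177, 0.171 and 0.103 CPM in WT PMN, and at 31.2, 31.4, 32.4 and 31.2 CPM in AHA lung against 24.1, 25.2 and 25.8 CPM in WT lung. Groups were apart in both tissues, but by very different factors, with a log2 fold change of 3.40 (SE 0.321) in neutrophils and 0.33 (95% interval 0.05 to 0.62) in lung. The difference was 3.07 (SE 0.36, adjusted p = 0.000335 by edgeR) and was called without each library in turn. Ear2, an eosinophil-associated ribonuclease, was at 3.1, 7.46 and 8.52 CPM in AHA PMN against 1.18, 1.03 and 1.44 CPM in WT PMN, and at 56.3 to 80 CPM in AHA lung against 63.7 to 74.7 CPM in WT lung. Its difference was 2.49 (SE 0.371, adjusted p = 0.00563 by edgeR).

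Tlr3, an endosomal receptor of double-stranded RNA, was at 4.67, 3.34 and 5.72 CPM in AHA PMN against 1.24, 1.6 and 1.18 CPM in WT PMN, and at 16.3 to 18.8 CPM in AHA lung against 16.9 to 18.6 CPM in WT lung (difference 1.79, adjusted p = 0.0132 by edgeR). Pmp22, a myelin and epithelial membrane protein, was at 2.25, 3.38 and 3.95 CPM in AHA PMN against 1, 0.912 and 0.565 CPM in WT PMN (difference 2.03), and Nr1d2, a nuclear receptor of the circadian clock, at 1.35, 1.65 and 2.8 CPM in AHA PMN against 0.471, 0.741 and 0.411 CPM in WT PMN (difference 1.90). In lung these groups overlapped, with log2 fold changes of -0.02 for Tlr3, -0.06 for Pmp22 and -0.04 for Nr1d2.

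Several neutrophil-limited genes had almost no counts in WT PMN, so their folds are wide. Ephx1, microsomal epoxide hydrolase, had 53 counts over AHA PMN against 3 over WT PMN (ratio 13.8, counting interval 4.46 to 68.9), and 225 to 286 CPM in AHA lung against 232 to 270 CPM in WT lung. Kitl, the ligand of the Kit receptor, had 34 against 1 (ratio 26.5, interval 4.44 to 1077), Steap3, an endosomal ferrireductase, 38 against 1 (ratio 29.6, interval 5 to 1200), and Igf1, insulin-like growth factor, 62 against 3 (ratio 16.1, interval 5.26 to 80.2). These intervals cover counting error only. Calhm2, a channel protein, had 34 against 3 (ratio 8.83, interval 2.78 to 44.9). Tdrp had 20 counts over AHA PMN against 0, at least 5.19-fold higher, and the zinc finger gene Zfp995 14 against 0, at least 3.64-fold higher by the floor. For each of these genes the lung effect was between -0.22 and 0.10 on the log2 scale.

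**Figure D4:**
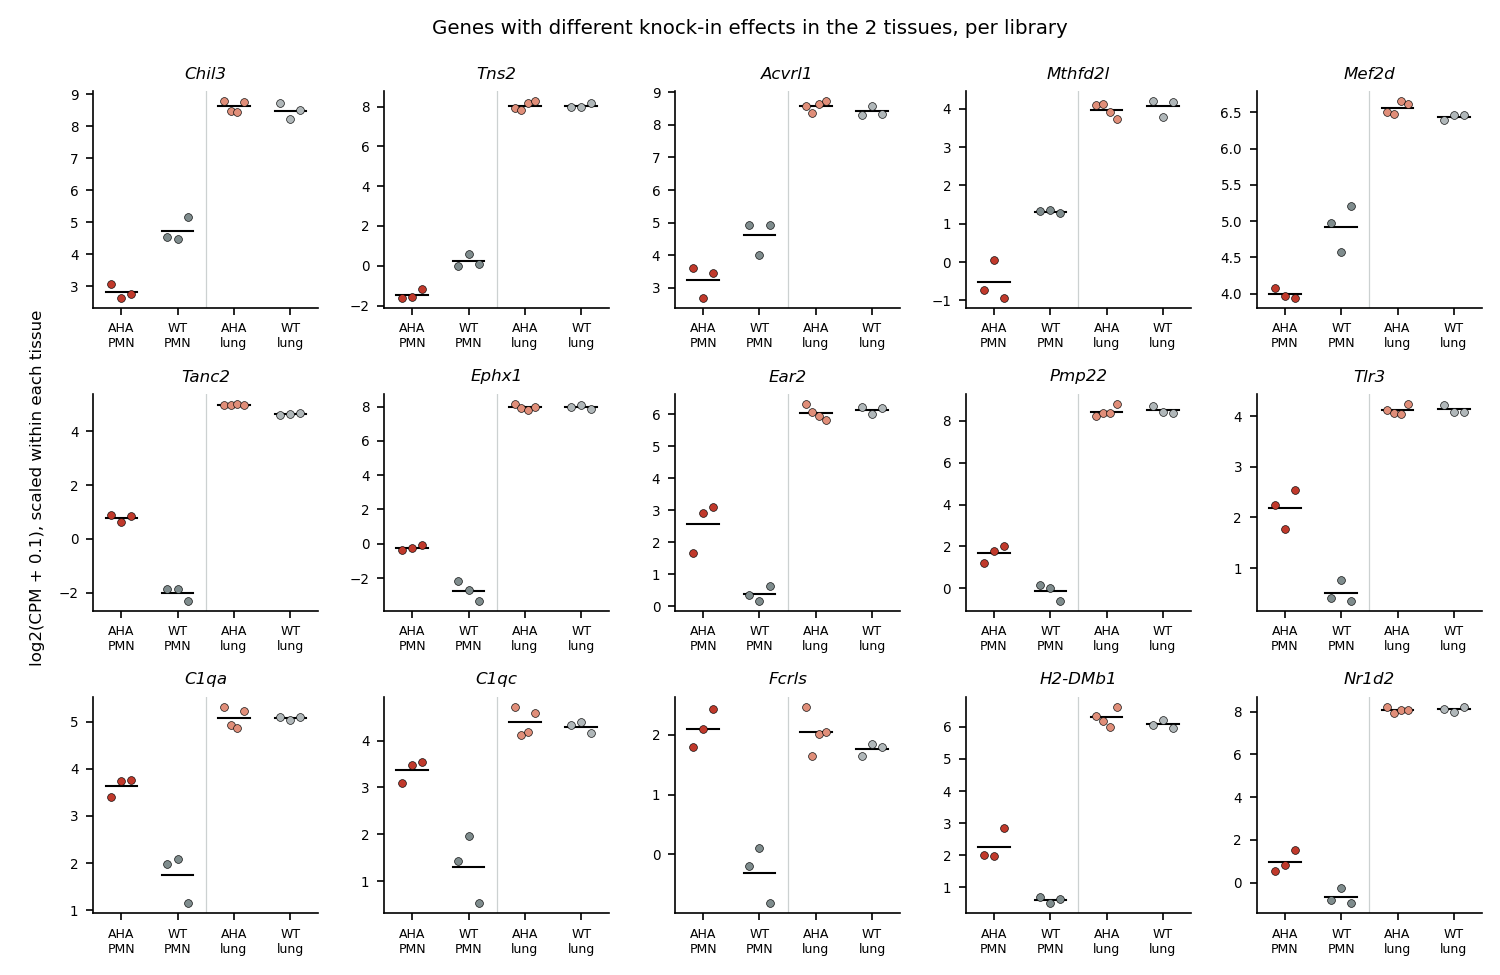
Level per library, as log2(CPM + 0.1) scaled within each tissue, of 15 genes with a called difference between the tissues. Points are libraries and bars are group means; AHA and WT libraries are apart in neutrophils and close or overlapping in lung, as for Chil3 (6.09 to 8.22 CPM in AHA PMN and 22 to 35.5 CPM in WT PMN).

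Of the 24 genes called for the difference only, 22 had an adjusted p under 0.05 in neutrophils with a log2 fold change short of 1. Their signs were opposite in the tissues, which follows from a difference beyond 1 between changes short of 1. Sema6b, a semaphorin, was at 60.5, 55.3 and 65.8 CPM in AHA PMN against 132, 93.3 and 104 CPM in WT PMN, with log2 fold changes of -0.86 (SE 0.162) in neutrophils and 0.34 (SE 0.16) in lung. Mef2d, a transcription factor, had -0.96 (SE 0.151) in neutrophils and 0.13 (SE 0.135) in lung. For both, AHA and WT libraries were apart in each tissue. Il2rb, a receptor chain for interleukin-2 and interleukin-15, was at 34, 33.7 and 50.1 CPM in AHA PMN against 13.9, 24.2 and 24.7 CPM in WT PMN, and at 4.93 to 8.13 CPM in AHA lung against 8.5 to 9.89 CPM in WT lung. The groups of Il2rb were apart in both tissues and in opposite directions (difference 1.44, adjusted p = 0.039 by edgeR).

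The other 2 genes, Slc16a6 and Kif1a, missed the threshold in each tissue. Slc16a6, a monocarboxylate transporter, was at 86, 82 and 86.8 CPM in AHA PMN against 101, 125 and 116 CPM in WT PMN, and at 5.93, 5.45, 6.69 and 5.03 CPM in AHA lung against 3.52, 3.98 and 3.85 CPM in WT lung. Kif1a, a kinesin, was at 74.1, 52.6 and 62.1 CPM in AHA PMN against 80.2, 99.3 and 98.2 CPM in WT PMN, and at 6.21, 5.59, 6.32 and 5.35 CPM in AHA lung against 2.34, 4.61 and 3.07 CPM in WT lung. Both were lower in every AHA PMN library and higher in every AHA lung library than in any WT library of that tissue, with differences of -1.04 for Slc16a6 and -1.38 for Kif1a (adjusted p = 0.028 for each by edgeR).

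Of the 32 genes named here with a called difference, 7 kept it without each library in turn (Gbp2b, C1qa, Chil3, Tanc2, Ephx1, Kitl and Ear2). Without AHA PMN replicate 6, 7 of the 32 were called and the highest adjusted p was 0.129, for Calhm2 (edgeR). Without WT lung replicate 1, 8 were called and Ank2 had an adjusted p of 0.123. All 32 were called without AHA PMN replicate 2, and 10 to 29 without each other library. The direction of each of the 32 was the same in all 13 of these fits.

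Gene lists were read next, to see which groups the neutrophil changes and the lung changes took in. Lists are described by their counts and medians beside those over all genes tested, where the median log2 fold change was 0 in neutrophils and 0.01 in lung. Over all genes tested, 2.14% were called higher and 0.486% lower in neutrophils, the shares beside which each list's counts stand. For lung they were 0.0452% higher and 0.0735% lower, shares at which most lists would hold no call. In lung, Gbp2b and Ifi44l were the members of the pathway and cell type lists called by edgeR and by DESeq2, and limma voom also called 1 LPS-induced cytokine gene. The genes the study itself names for the knock-in were chosen on these samples and are not counted here.

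Some genes of macrophages and antigen presentation rose in AHA PMN. Of 24 macrophage genes, 11 were higher and none lower by edgeR (12 called by DESeq2 and 8 by limma voom), with a median log2 fold change of 1.24 in neutrophils and 0.08 in lung. The subunits of C1q, which starts the classical complement pathway and is made by macrophages, were among the 5 with a called difference. C1qa was at 10.5, 13.2 and 13.4 CPM in AHA PMN against 3.83, 4.16 and 2.11 CPM in WT PMN, and at 39.8, 30.2, 29 and 37.5 CPM in AHA lung against 34.2, 32.8 and 34.3 CPM in WT lung. Its difference was 1.87 (SE 0.277, adjusted p = 0.00456 by edgeR's quasi-likelihood test with Benjamini-Hochberg adjustment). C1qb was at 18.8, 23 and 26.6 CPM in AHA PMN against 8.24, 9.58 and 3.96 CPM in WT PMN (difference 1.47), and C1qc at 8.5, 11 and 11.6 CPM in AHA PMN against 2.59, 3.82 and 1.34 CPM in WT PMN (difference 1.89).

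The list did not move as a whole. Fcrls, a macrophage and microglia receptor, was at 3.38, 4.16 and 5.3 CPM in AHA PMN against 0.766, 0.969 and 0.463 CPM in WT PMN (difference 2.23), and Axl, a receptor tyrosine kinase that clears dying cells, had a difference of 1.47. Csf1r, the macrophage colony-stimulating factor receptor, averaged 98.4 CPM in AHA PMN and 105 CPM in WT PMN, and Adgre1, which encodes F4/80, 54.2 CPM in AHA PMN and 66.4 CPM in WT PMN, and neither was called. Marco, a scavenger receptor, was at 0 in 2 AHA and 2 WT neutrophil libraries. The summed level of the list was 525 to 628 CPM in AHA PMN and 405 to 492 CPM in WT PMN, so these groups did not overlap. The part of such cells in the neutrophil preparations was not tested.

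Of the 11 MHC class II genes, which present peptides to CD4 T cells, 6 were higher in AHA PMN and none lower by edgeR (6 called by DESeq2 and 3 by limma voom), with a median log2 fold change of 1.07 in neutrophils and 0.20 in lung. H2-DMb1, a chaperone of peptide loading, was at 3.88, 3.81 and 7.1 CPM in AHA PMN against 1.53, 1.31 and 1.44 CPM in WT PMN, with log2 fold changes of 1.80 (SE 0.26) in neutrophils and 0.23 (SE 0.178) in lung, and was the member with a called difference (1.56, adjusted p = 0.0324 by edgeR). H2-Aa averaged 156 CPM in AHA PMN and 72.7 CPM in WT PMN, against 473 CPM in AHA lung and 412 CPM in WT lung, and its difference of 0.90 had an adjusted p of 0.0972 by edgeR. The summed level of the list was 1031 to 1362 CPM in AHA PMN and 571 to 845 CPM in WT PMN.

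Lymphocyte and cell cycle genes were also called in neutrophils. None of them was called in lung, where 0.0452% of all genes tested were higher and 0.0735% lower. Of 26 T cell genes, 7 were higher in AHA PMN by edgeR (9 called by DESeq2 and 1 by limma voom), and all 26 had a positive log2 fold change, against 7 of 26 in lung. Lck, the kinase of T cell receptor signalling, was at 7.15, 4.99 and 9.1 CPM in AHA PMN against 2.53, 3.54 and 3.44 CPM in WT PMN, and at 9.07 to 11.7 CPM in AHA lung against 11.6 to 13.6 CPM in WT lung (difference 1.45, adjusted p = 0.039 by edgeR). Of 16 NK cell genes, 4 were higher in AHA PMN by edgeR (4 called by DESeq2 and 0 by limma voom), and 16 had a positive log2 fold change in neutrophils against 2 in lung. Cd3d, a T cell receptor subunit, was at 2.08, 2.32 and 2.8 CPM in AHA PMN against 2.83, 1.88 and 2.06 CPM in WT PMN, with overlapping groups. The T cell list summed to 74.2 to 143 CPM in AHA PMN and 47.1 to 61.5 CPM in WT PMN, and the NK cell list to 479 to 571 CPM in AHA PMN and 291 to 438 CPM in WT PMN.

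Of 30 cell cycle genes, 5 were higher in AHA PMN by edgeR (5 called by DESeq2 and 1 by limma voom), and Mcm6, part of the replicative helicase, was at 4.22, 4.91 and 5.83 CPM in AHA PMN against 1.77, 3.02 and 1.23 CPM in WT PMN (difference 1.47, adjusted p = 0.039 by edgeR). Its level in lung was 22.3 to 31.3 CPM in AHA mice and 27 to 34.3 CPM in WT mice. With the markers of other cell types left out of the table, an alternative chosen after the data had been seen, 88 differences were called and 67 genes were neutrophil-limited. None of the 22 neutrophil markers was called in either tissue by edgeR, DESeq2 or limma voom, and 1 in neutrophils and 3 in lung had an unadjusted p under 0.05 in edgeR.

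The lists closest to RAGE held no called gene, where few would be called at the shares over all genes tested. Those shares were 2.14% higher and 0.486% lower in neutrophils and 0.0452% and 0.0735% in lung. For the difference they were 0.396% and 0.198%. Of the 11 RAGE ligands tested, the 20 genes of RAGE signalling and the 28 genes of HS synthesis and its core proteins, none was called in neutrophils, in lung or for the difference, by edgeR, DESeq2 or limma voom. At an unadjusted p under 0.05 in edgeR there were 2 ligands, 4 signalling genes and 6 HS genes in neutrophils. There were 0, 0 and 1 in lung, and 1, 2 and 2 for the difference. Over all 17692 genes tested there were 3781 in neutrophils, 454 in lung and 2839 for the difference. S100a8, a calprotectin subunit and RAGE ligand, averaged 5451 CPM in AHA PMN and 6406 CPM in WT PMN, and Hmgb1, a nuclear protein that acts as a RAGE ligand outside the cell, 16.4 CPM in AHA PMN and 16 CPM in WT PMN. Hmgb1 averaged 386 CPM in AHA lung and 411 CPM in WT lung. The lung interval lay within 1 log2 unit of 0 for all 20 signalling genes, for 25 of the 28 HS genes and for 8 of the 11 ligands.

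The lists of interferon-inducible genes did not fall as a whole with Gbp2b. Of 30 interferon-stimulated genes, Mx1, a GTPase that blocks influenza virus, was higher and Ifi44 and Ifi44l were lower in AHA PMN, and the median log2 fold change was 0.05 in neutrophils and 0.06 in lung. Mx1 was at 136, 136 and 182 CPM in AHA PMN against 46.7, 107 and 61.1 CPM in WT PMN, and its difference of 1.00 was not called (adjusted p = 0.290 by edgeR). Of the 11 guanylate-binding proteins, none but Gbp2b was called, and their median log2 fold change was 0.73 in neutrophils and 0.87 in lung. For the 11 immunity-related GTPases it was 1.02 and 0.84, with 11 positive in each tissue and 0 called. With AHA lung replicate 4 set aside, the GTPases summed to 199 to 221 CPM in AHA lung and 166 to 244 CPM in WT lung. In AHA PMN they summed to 4071 CPM in replicate 2, 2509.5 CPM in replicate 4 and 2759 CPM in replicate 6. WT PMN had 1959 to 2900 CPM. The guanylate-binding proteins summed to 873 CPM in AHA lung replicate 4, against 236 to 238 CPM in the other AHA lungs. WT lung had 207 to 285 CPM. Gbp2, which lies next to Gbp2b, averaged 3674 CPM in AHA PMN and 2210 CPM in WT PMN, and 101 CPM in AHA lung and 47.9 CPM in WT lung. The lung mean rested on AHA lung replicate 4, at 239 CPM.

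Of 21 LPS-induced cytokine genes, Il6 and Il12b were higher in AHA PMN by edgeR (2 called by DESeq2 and 1 by limma voom). In neutrophils 12 of the 21 had an unadjusted p under 0.05 in edgeR, against 3781 of all 17692 genes tested. None of the 21 was called for the difference by edgeR or limma voom, where 3 were by DESeq2 and 7 had an unadjusted p under 0.05 in edgeR. Il6, a pyrogenic cytokine, was at 19.2, 21.2 and 13.9 CPM in AHA PMN against 6.6, 9.24 and 8.07 CPM in WT PMN, and at no more than 0.332 CPM in any lung library. Il12b, the p40 subunit of interleukin-12, was at 1.97, 6.05 and 2.19 CPM in AHA PMN against 0.942, 1.2 and 0.977 CPM in WT PMN. The lung interval lay within 1 log2 unit of 0 for 2 of the 21, and in lung 6 had an unadjusted p under 0.05 in edgeR, with 0 called by edgeR, 0 by DESeq2 and 1 by limma voom. Of 17 clock genes, Nr1d2 was higher and Per3 lower in AHA PMN, both with means under 2 CPM there, and the median log2 fold change was -0.43 in neutrophils and 0.00 in lung. By edgeR, the marker lists of alveolar, airway, fibroblast and heart muscle cells held no called gene in either tissue, while DESeq2 called 1 alveolar type 1 and 1 alveolar type 2 marker in neutrophils and limma voom none. At an unadjusted p under 0.05 in edgeR there were 2 alveolar type 1, 4 alveolar type 2, 0 airway, 1 fibroblast and 0 heart muscle markers in neutrophils, and 0 of each in lung. Of the 13 endothelial markers, edgeR called Cdh5 higher in neutrophils, and DESeq2 and limma voom called none.

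**Figure D5:**
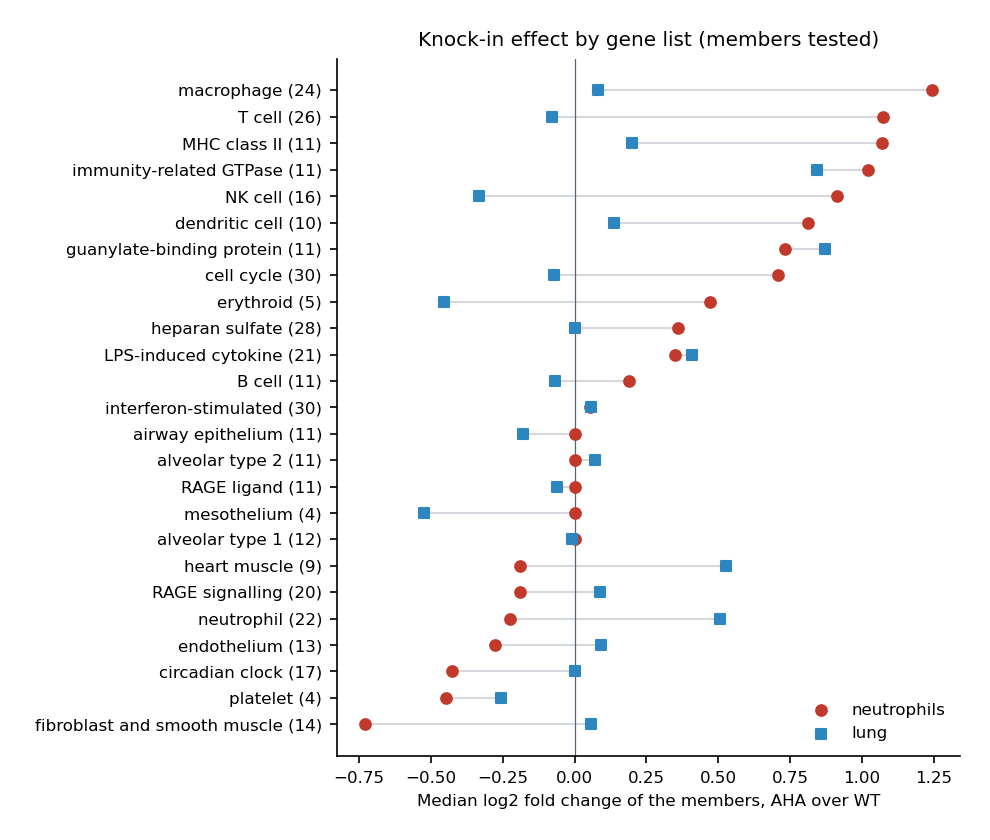
Median log2 fold change of AHA over WT for each gene list in neutrophils (circles) and in lung (squares), with the number of members tested in brackets. Macrophage, T cell, MHC class II and NK cell genes lie at 0.91 to 1.24 in neutrophils and at -0.33 to 0.20 in lung. Immunity-related GTPases lie at 1.02 in neutrophils and 0.84 in lung, with 1 AHA library of each tissue far above the others in summed level.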

How the data were processed

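RNA was sequenced from libraries made with the NEBNext Ultra RNA kit. The submitters' processing notes name CASAVA, fastp, STAR and featureCounts, and the build mm10; strand setting and treatment of multi-mapped reads were not given in the sources used here. The raw counts per gene deposited by the authors were the unit tested, and the FPKM values deposited by the authors (counts per length and depth) served only in alternatives. The authors' tables of fold changes and p-values were not used. The members and gene lists were chosen with earlier results of these data known.

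Counts of 13 libraries (18226486 to 24818703 per library) were fitted in 1 model with 4 groups by edgeR 4.0.16 (R 4.3.3; glmQLFit with robust estimation, glmQLFTest) after edgeR's default filter, with TMM factors set within each tissue, in which scaling between tissues cancels from the difference. The p-values were adjusted by Benjamini-Hochberg over all 17692 genes. CPM used the same factors. Floors of 3 counts over a group and exact 95% binomial intervals of count ratios cover counting error only. A set of 200 genes changed in simulated counts tested the fit. Alternatives used DESeq2 1.42.0, limma 3.58.1, other scaling, filters, libraries and blocks. Sequences were compared with blastn 2.17.0+.

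Genes named were those called in both tissues, in each direction of the difference the 8 largest plus 4 more taken in order of p, out of called genes at 1 CPM or more in a group and with no overlap in the tissue of larger change, up to 4 called members per list, Ager, and the genes the study names for the knock-in. Genes called in lung alone and list members given as examples were chosen after their values were seen. In the tables used, 0 columns of per-sample values lacked a sample. Knockout libraries were used in 1 alternative.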

Additional observations from a re-analysis of the deposited data

Results flagged for a closer look

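The tests of the difference between the tissues flagged 32 of the named genes. Each was flagged by an adjusted p under 0.05 and a size beyond 1 for the difference of log2 fold changes, neutrophils minus lung. Among genes with a positive difference, the values were 5.76 for Tdrp, 5.34 for Zfp995, 4.41 for Steap3, 4.37 for Kitl, 3.80 for Igf1, 3.65 for Ephx1, 3.07 for Calhm2 and 3.07 for Tanc2. They were 2.49 for Ear2, 2.23 for Fcrls, 2.03 for Pmp22, 1.90 for Nr1d2, 1.89 for C1qc, 1.87 for C1qa and 1.79 for Tlr3. The smaller ones were 1.56 for H2-DMb1, 1.47 for Mcm6, 1.47 for C1qb, 1.45 for Lck and 1.44 for Il2rb. Fitted values for Tdrp, Zfp995, Steap3 and Kitl rest on 0 or 1 count in WT PMN and depend on the prior count.

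Among genes with a negative difference, the values were -8.02 for Gbp2b, -4.77 for Grb10, -3.20 for Ank2, -2.08 for Chil3, -1.99 for Tns2 and -1.81 for Mthfd2l. The smaller ones were -1.55 for Acvrl1, -1.50 for Tubb6, -1.38 for Kif1a, -1.20 for Sema6b, -1.08 for Mef2d and -1.04 for Slc16a6.

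Among the 4 AHA lungs, a library far from the others was seen for 6 of the 46 named genes, by the gap to the nearest library over the group's range against Dixon's critical value, a rule by which chance flags about 1 in 20 groups. AHA lung replicate 4 was highest for Ifi44 (0.904), Kitl (0.888) and Calhm2 (0.853). AHA lung replicate 1 was highest for Igf1 (0.874) and, with 3 counts against 0 in the other lungs, for Gm48496 (1). AHA lung replicate 3 was highest for Tanc2 (0.840).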

How the results depend on the processing

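Every alternative named here was compared with 105 called differences, 464 genes called in neutrophils, 21 in lung, 13 shared, 80 neutrophil-limited and 0 lung-limited. DESeq2 gave 445 differences and 331 neutrophil-limited genes, and no filter gave 437, 335, 40 lung calls and 5 lung-limited genes. A strict filter gave 174 differences and 299 neutrophil calls, and all 20 libraries gave 193 differences and 153 neutrophil-limited genes. limma voom gave 17 differences, 140 neutrophil calls, 32 lung calls, 10 neutrophil-limited and 4 lung-limited genes. limma on log2(FPKM + 1) gave 21, 100, 9, 16 and 2, with 7 shared genes, and on log2(FPKM + 0.1) it gave 17 differences, 245 neutrophil calls, 10 neutrophil-limited and 4 lung-limited genes. Each tissue fitted alone gave 250 neutrophil calls, and the adjusted p alone gave 1061. The cause of these shifts was not tested.

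Leaving out each library in turn gave 9 to 464 differences, 135 to 815 neutrophil calls, 13 to 24 lung calls, 8 to 14 shared, 8 to 402 neutrophil-limited and 0 to 1 lung-limited genes (Wdfy1 without AHA PMN replicate 2 and Alpk1 without AHA PMN replicate 4). The lowest neutrophil count was without WT PMN replicate 1 and the highest without AHA PMN replicate 2.

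Outside the blocks given below, the replicate numbers were not used as pairs. So few libraries per group cannot decide whether these numbers pair the samples. Deviations of same-numbered libraries correlated at -0.144 between genotypes in neutrophils and at 0.01, -0.21 and 0.25 in lung. Between tissues of the same genotype they correlated at -0.08 to 0.115. Differently numbered libraries spanned -0.376 to 0.288. With the replicate number as a block there were 6 differences, 18 neutrophil calls, 7 shared and 5 neutrophil-limited genes. The lung calls were then 5 higher and 9 lower. The counts in the tissues were closer than without the block, but this cannot be read as a result about the tissues. Only replicate number 2 occurs in both neutrophil genotypes, while numbers 1 to 3 occur in both lung genotypes. A further block joined genotype and replicate number, which treats same-numbered libraries of a genotype in both tissues as the same mouse. The labels do not say that they are, and some AHA libraries have no such partner. With this block there were 32 differences.

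Summing the near-identical copies, chosen after seeing the data, gave 13 lung calls and 6 shared genes and turned the sign of mt-Nd3, to -0.075 in neutrophils and -0.79 in lung, since the value is then the pair's. Genes with 0 to 3 counts in a group are limited by depth, and their folds are bounds or wide intervals.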
